A study of Xenopus laevis with 35 samples.

Results

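On a small array hybridised with brain RNA of Xenopus laevis tadpoles, xnf7.L and btg1.S were the named genes called higher with all 3 thyroid inhibitors after 96 h in an earlier analysis of these data. They were chosen by that measured difference from control at 96 h. They are 2 of the 243 genes with a name on the array. Each is measured by 1 probe printed as 2 neighbouring spots, and the values below are the mean of the paired spots. Since the 96 h difference chose them, its values are given as a description with no test, and tests are given only at 24 h and 48 h.

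Exposure began at NF stage 54, when the limbs are growing and metamorphosis has just started. Controls were kept without an inhibitor, and other tanks held MMI (100 mg/L), PTU (20 mg/L) or PER (4 mg/L) for 24, 48 or 96 h. At each time 10 tadpoles per treatment, drawn from 2 tanks, gave brain RNA that was combined into 3 pools, so an array stands for a pool of animals and a p-value measures the spread between pools. The 35 arrays fall into 12 groups of treatment by time with 3 arrays each, but PER 24 h had 2. The labels give no strain, sex or genotype, and no dose series was measured.

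MMI is methimazole and PTU is propylthiouracil, thionamides that block thyroid peroxidase, the enzyme that puts iodine on thyroglobulin. PER is perchlorate, which blocks the uptake of iodide into the thyroid. These names are background, as the labels give the short forms. All of them lower the making of thyroid hormone, the signal that drives metamorphosis and reshapes the tadpole brain through receptors that act as transcription factors.

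The product of xnf7, Xenopus nuclear factor 7, is a tripartite-motif protein with a RING finger, a B-box and a coiled coil. It is stored in the egg, held in the cytoplasm of the early embryo and later moved into nuclei, and in egg extracts it acts as a ubiquitin ligase and binds microtubules. The product of btg1 belongs to the BTG/TOB family of antiproliferative proteins, which bind the CCR4-NOT deadenylase and so favour the shortening of mRNA tails. In mice Btg1 keeps adult neural stem cells from leaving quiescence, and in avian myoblasts BTG1 has been tied to the action of thyroid hormone and its receptor. Xenopus laevis carries 2 copies of each gene, named L and S after the long and the short chromosome, and whether a probe tells the copies apart is not given in the sources used here, so each value may include the other copy. The array's build is not named, so no coordinates are given.

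Intensities are in arbitrary units, scaled so that all arrays have the same median over the 18 probes that exceeded background everywhere. Many deposited values are below 0, so they are taken here as background-subtracted, although the sources used here do not give the method. On that reading, a value at or below 0 means that the spots were no brighter than their surroundings. A probe is called above background where it exceeds 2 background SDs of its array, the background SD being the root mean square of the array's negative probe values. The probe of xnf7.L was above background on 33 of 35 arrays and that of btg1.S on 26. In a bulk sample of brain, fewer cells of a type and less RNA per cell cannot be told apart.

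The 3 control arrays of 96 h stood apart before any gene is considered. Over the 95 brighter probes, those above background on at least 18 arrays, the mean correlation of each with the others of its group was 0.373 to 0.511. It was 0.752 to 0.935 among exposed arrays of that time and 0.583 to 0.802 for controls of 24 h and 48 h. Their scaled background SD was 1025 to 1261, within the 432 to 1627 of earlier controls and the 241 to 1316 of exposed arrays of 96 h. Of those exposed arrays only MMI 96 h replicate 3, at 1316, was as noisy as these controls. The next highest, MMI 96 h replicate 1, had 903, and the PER 96 h arrays had 241, 431 and 456. Control 96 h was also the lowest of the 12 groups for 32 of 93 brighter probes with a value in every group, or 34.4%, and PTU 96 h, next in that count, was lowest for 14. Every 96 h value below is read against these 3 arrays. The values of PER 48 h replicate 3 were almost those of PER 24 h replicate 1 (Spearman 0.999 over 898 spots, against 0.654 for the next pair), so 1 of these labels may not hold its own pool, and each PER result at 24 h and 48 h is also given without them.

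At 96 h the level of xnf7.L was not above background on 2 of 3 control arrays and was above it on all 9 exposed arrays. The controls read 3579, -463 and 264, and only the first was above background. With MMI the arrays read 6709, 6436 and 6439. With PTU they read 3752, 4785 and 6652. All 6 of these arrays were above every control array of 96 h, but the lowest PTU array exceeded the highest control by a ratio of only 1.05. With PER the arrays read 5490, 5216 and 5259, which lie close together and above all 3 controls. Group means were 1127 ± 2154 for controls, 6528 ± 157 with MMI, 5063 ± 1470 with PTU and 5322 ± 147 with PER (SD, n = 3 each).

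The level of btg1.S at 96 h followed the same order of controls below exposed arrays, and control replicate 2 was again the lowest array. The controls read -7, -271 and 1169, none above background. The threshold of 2 background SDs was 2522, 2051 and 2103 scaled units on these control arrays. With MMI the arrays read 1564, 1809 and 3308, of which 2 of 3 were above background. With PTU they read 1611, 1721 and 2439. These 6 arrays again exceeded the highest control, the lowest of each group by a ratio of 1.34 with MMI and 1.38 with PTU. With PER they read 1340, 1446 and 1447, the narrowest group and the one nearest to the controls, with a lowest array 1.15 times the highest control. The threshold was 482, 862 and 913 on these PER arrays, so their values would not pass it on any control array of 96 h. Nor would the MMI values of 1564 and 1809 or the PTU values of 1611 and 1721. The PTU value of 2439 would pass on control replicates 2 and 3 but not on 1. Only the MMI value of 3308 would pass on all 3 control arrays. Group means were 297 ± 767 for controls, 2227 ± 944 with MMI, 1924 ± 450 with PTU and 1411 ± 61.6 with PER (SD, n = 3 each).

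**Figure D1:**
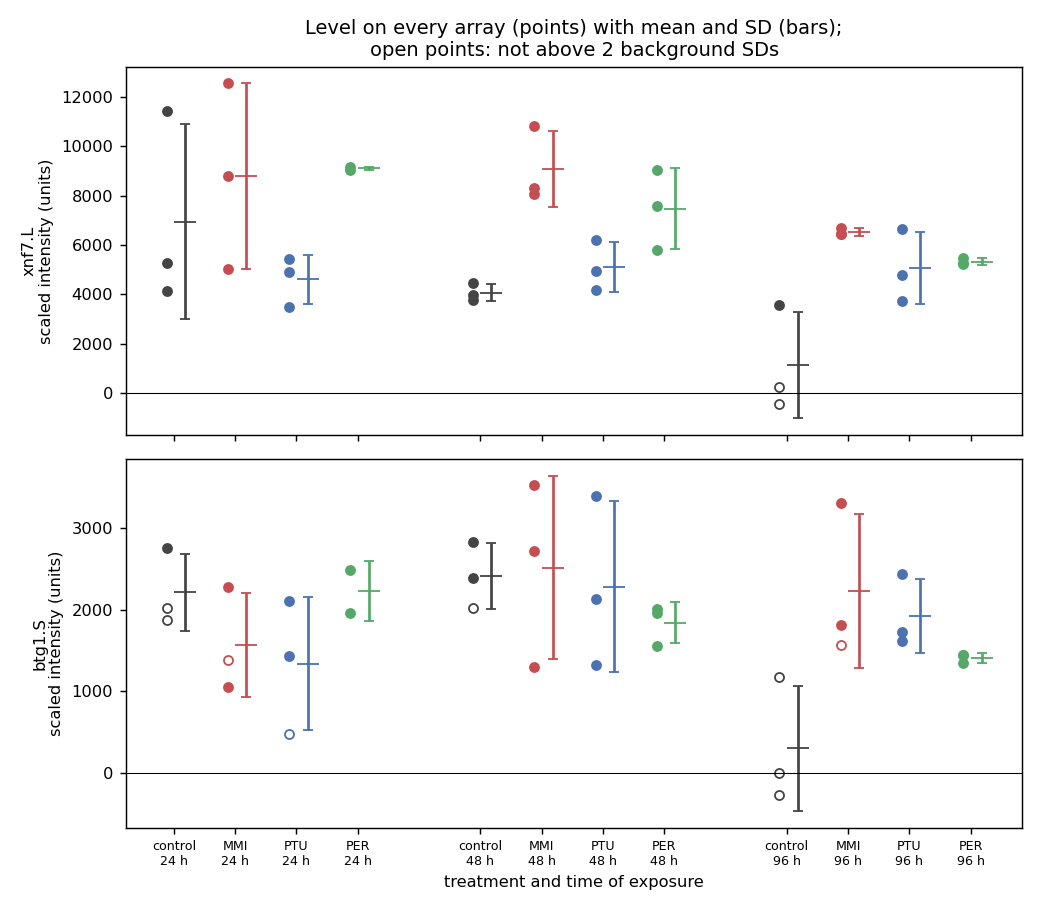
Scaled intensity (arbitrary units, linear axis) of xnf7.L (top) and btg1.S (bottom) on each of the 35 arrays, by treatment and time, with group mean and SD. Open points are arrays where the probe was not above 2 background SDs. The 3 control arrays of 96 h sit between -463 and 3579 for xnf7.L and between -271 and 1169 for btg1.S, below all 9 exposed arrays of that time.

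The control arrays that were low were only in part the same for both genes. Control replicate 1 held the highest xnf7.L value of its group and read -7 for btg1.S, while replicate 3 held the highest btg1.S value and read 264 for xnf7.L. Control replicate 2 was below 0 for both.

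On the log2 scale, with negative values set to 0 and an offset of 67.6 added, the 96 h differences from control of xnf7.L were 3.93, 3.52 and 3.63 for MMI, PTU and PER. Those of btg1.S were 3.61, 3.46 and 3.05. These sizes rest on where the near-zero control values are placed. The ratios of linear means were smaller, 5.79, 4.49 and 4.72 for xnf7.L and 7.50, 6.48 and 4.75 for btg1.S with MMI, PTU and PER, and the denominators carry SDs larger than their means. For btg1.S no fold can be stated, because 0 control arrays were above background and the fold against the lowest measurable signal on those arrays came to less than 1 with each compound. Concentrations differed between the compounds, so these values are set side by side and not compared.

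Leaving out 1 control array of 96 h moved these differences by more than 1.5 times on the linear scale, except replicate 3 for xnf7.L. Without that array the differences of xnf7.L were 3.73, 3.33 and 3.44 with MMI, PTU and PER. Without control replicate 1 the differences of xnf7.L were 5.46, 5.06 and 5.17 with MMI, PTU and PER, and without replicate 2 they were 2.58, 2.18 and 2.29. Without control replicate 3 those of btg1.S were 5.01, 4.86 and 4.45, and without replicate 1 or 2, which share the value 0 before the offset, they were 2.91, 2.76 and 2.35. The median change of the 95 brighter probes at 96 h was 0.88, 0.33 and 0.58 for MMI, PTU and PER, so relative to it xnf7.L differed by 3.04, 3.19 and 3.05 and btg1.S by 2.73, 3.13 and 2.47. Under every scaling tried the log2 differences of both genes at 96 h kept their sign. The genes were chosen for a large difference on these same arrays, so the kept sign is no separate support.

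Over all probes, limma called 3.84% higher with MMI at 96 h, 1.14% with PTU and 1.13% with PER, and 3 of 436 probes, or 0.688%, were called higher with each of the 3 compounds. These calls depended on the spread being shared over all 35 arrays. Counted either way they were 21, 5 and 6 with MMI, PTU and PER, and 0, 0 and 1 where only the arrays compared were fitted, while MMI gave 8 with the values as deposited. Exposed and control arrays did not overlap, with exposed higher, for 10.4%, 7.5% and 9.5% of probes. The rule used these contrasts, so nothing is read from both genes being among them. The third probe called with all 3 compounds, probe 809, has no gene name, and its differences were 4.61, 5.42 and 5.81 with MMI, PTU and PER. Just outside the rule were 3 probes called with 2 compounds. They were npy.S, the neuropeptide Y gene, at 4.08, 2.69 and 3.87, ldha.L, a lactate dehydrogenase subunit, at 1.67, 2.71 and 2.61, and cct3.S, a subunit of the chaperonin that folds tubulin and actin, at 1.62, 2.06 and 1.34.

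**Figure D2:**
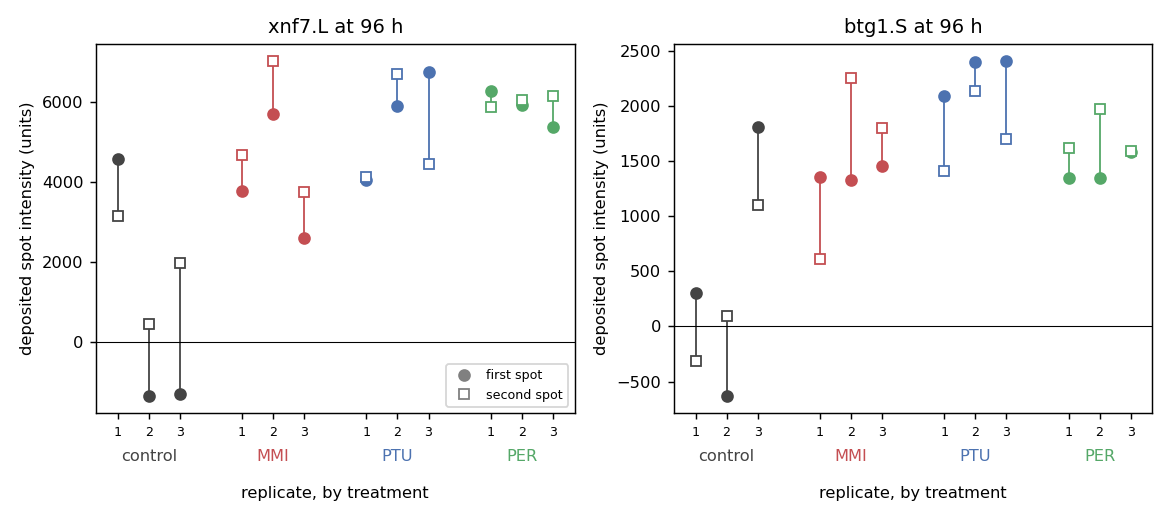
Deposited intensity (arbitrary units, before scaling) of the first and the second spot of each probe on the 12 arrays of 96 h, by replicate and treatment; a line joins the spots of an array. The spots of the control arrays fall between -1364 and 4571 for xnf7.L and between -633 and 1804 for btg1.S, and no spot of an exposed array is at or below 0.

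The single spots show how firmly each 96 h value was measured. For xnf7.L the first and second spots of the control arrays read 4571 and 3138 on replicate 1, -1364 and 442 on replicate 2, and -1318 and 1974 on replicate 3. For btg1.S they read 300 and -315, -633 and 92, and 1804 and 1103. On 2 of the control arrays for each gene, then, the mean joins a positive and a negative spot. Over the whole series the paired spots had opposite signs on 2 arrays for xnf7.L and on 3 for btg1.S, all of them controls. Where both spots were positive, they lay within 2-fold of each other on 30 of 33 arrays for xnf7.L, with a median ratio of 1.24, and on 26 of 32 for btg1.S, with a median ratio of 1.39.

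The separation at 96 h depended in part on the scaling and the spot. As deposited, with no scaling, the lowest MMI array read 3164 for xnf7.L and 983.5 for btg1.S, below the highest control values of 3854.5 and 1453.5, so the groups overlapped for both genes. PTU and PER remained separate from controls for both genes as deposited. With the first spot alone xnf7.L overlapped with PTU and btg1.S with PER, and with all-probe median scaling btg1.S overlapped with MMI and with PTU. With the second spot alone no group of either gene overlapped with controls.

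The exposed arrays of 96 h can also be set beside the 6 control arrays of 24 h and 48 h. For xnf7.L these early controls ran from 3765 to 11450, and 8 of 9 exposed arrays of 96 h lay in that range, while all 3 control arrays of 96 h lay under it. The ratio of linear means to the early controls was 1.19 for MMI, 0.919 for PTU and 0.966 for PER. For btg1.S the early controls ran from 1869 to 2826. Only 1 of 9 exposed arrays of 96 h lay in that range, 1 with MMI lay above it and the others under it, and again all 3 control arrays of 96 h were under it. The ratios were 0.962 for MMI, 0.831 for PTU and 0.610 for PER. Of the early controls of btg1.S, 1 of 3 at 24 h and 2 of 3 at 48 h were above background. The count of arrays in range also depended on the scaling. As deposited the early controls of btg1.S ran from 1510.5 to 2936. All 3 PTU arrays of 96 h, at 1749 to 2264, lay in that range. With MMI (983.5 to 1788.5) and PER (1479.5 to 1659) only the lowest array of each lay under it.

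Of the neural markers listed for this report 8 are on the array, and at 96 h limma called 1 of them higher with MMI, 0 with PTU and 1 with PER, in both cases npy.S. Over all probes 3.84%, 1.14% and 1.13% were called higher at that time. The log2 differences of dlx2.L, a homeobox gene of forebrain neurons, were -0.86, -1.31 and -1.28 with MMI, PTU and PER. Those of neurod1.L, a factor of neuron differentiation, were 0.14, 0.35 and 0.20. Those of dlx5.L were 2.26, 0.55 and 2.37, and those of trh.S, above background on 4 of 35 arrays, were 1.78, 1.44 and 0.67. No difference of these markers passed the test. Over the whole series gap43.S, the growth cone protein gene, was above background on 34 of 35 arrays, mbp.S, for myelin basic protein, on 30, npy.S on 30 and msi1.S, a marker of neural progenitors, on 28. At 96 h gap43.S differed by 1.74, 2.09 and 2.06 with MMI, PTU and PER, mbp.S by 0.28, 1.94 and 1.41 and msi1.S by 2.57, 2.57 and 2.92. None of these passed the test. The median over the 8 markers was 1.76, 1.69 and 1.74, beside 0.14, -0.02 and -0.24 over all probes tested. Over the 95 brighter probes, which include 5 of the 8 markers, the median was 0.88, 0.33 and 0.58. The summed scaled level of the 8 markers was 9920 to 28888 on control arrays of 96 h. It was 30189 to 41133 with MMI, 37377 to 59512 with PTU and 42520 to 48134 with PER, so no exposed array fell into the control range. That separation rests in part on gap43.S, the brightest marker. Without it the sum was 7337 to 14186 on control arrays of 96 h, which overlapped MMI at 12980 to 18025, but not PTU at 15503 to 32531 or PER at 16881 to 25915. Between 1 and 5 of the 8 markers were above background on the control arrays of 96 h, with mbp.S above it on 3 of 3, gap43.S and dlx2.L on 2, and neurod1.L, npy.S and trh.S on 0. On the 6 early control arrays npy.S was above background on 6, trh.S on 1 and neurod1.L on 0. Their part in the differences of xnf7.L and btg1.S was not tested. Of the markers of other cells, casp1.L for immune cells and fabp2.L for liver and gut were the only listed genes on the array, and those for red blood cells, muscle, epidermis and retina had 0. At 96 h casp1.L, above background on 29 of 35 arrays, was called higher with MMI (2.98; limma adjusted p = 0.0267), and its differences with PTU and PER were -0.39 and 1.27 (adjusted p = 0.896 and 0.535). Those of fabp2.L, above background on 5 arrays, were 0.68 with MMI (adjusted p = 0.870), 4.18 with PTU (adjusted p = 0.171) and 0.35 with PER (adjusted p = 0.942). The part of these genes in the differences was not tested either.

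At 24 h, a time the rule did not use, neither gene was called with any compound. The controls of xnf7.L read 4126, 5266 and 11450, against 8797, 12552 and 5038 with MMI, 3504, 4918 and 5416 with PTU, and 9048 and 9158 with PER. All groups overlapped the controls, whose own coefficient of variation was 56.7%. The log2 difference was 0.38 with MMI (SE 0.80; limma adjusted p = 0.898), -0.47 with PTU (SE 0.80; adjusted p = 0.834) and 0.53 with PER (SE 0.89; adjusted p = 0.941). The 95% interval with MMI ran from -1.26 to 2.02, so a change of 2-fold in either direction was within it. These SEs, and those below, come from 1 spread shared by all 12 groups, the controls of 96 h included. The log2 SD of xnf7.L was largest in control 96 h, at 2.90, and next in control 24 h, at 0.76. That of btg1.S was 2.42 in control 96 h. Where only the arrays compared were fitted, the SE of xnf7.L with MMI was 0.59 (limma adjusted p = 0.855).

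For btg1.S at 24 h the controls read 1869, 2752 and 2022. With MMI the arrays read 1049, 2279 and 1378, with PTU 478, 1428 and 2107, and with PER 1965 and 2486. Every group overlapped the controls, and only 1 of 3 control arrays was above background. The log2 difference was -0.53 with MMI (SE 0.76; limma adjusted p = 0.842), -0.89 with PTU (SE 0.76; adjusted p = 0.641) and 0.02 with PER (SE 0.85; adjusted p = 1). Of all probes 0.676% were called either way with MMI at 24 h, 1.58% with PTU and 0% with PER, where 38 probes had an unadjusted p under 0.05.

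At 48 h the xnf7.L arrays exposed to MMI and to PER were all above the controls, but the differences did not pass the test. The controls read 3765, 4462 and 3985, the most even control set of the series for this gene. With MMI the arrays read 8065, 8317 and 10844, with PTU 6185, 4947 and 4194, and with PER 5790, 7576 and 9047. The MMI and PER groups lay wholly above the controls, and the PTU group overlapped them. The log2 difference was 1.13 with MMI (SE 0.80; 95% interval -0.51 to 2.77; limma adjusted p = 0.875), 0.31 with PTU (adjusted p = 0.943) and 0.85 with PER (SE 0.80; adjusted p = 0.877). Where only the arrays compared were fitted, the SEs were 0.32, 0.41 and 0.42 with MMI, PTU and PER. The differences did not pass the test there either (limma adjusted p = 0.477, 0.790 and 0.647). Without the nearly identical arrays the PER differences of xnf7.L were 0.54 at 24 h and 0.70 at 48 h (adjusted p = 0.979 and 0.980); PER 24 h then has 1 array, assumed to vary like the other groups, which supply the spread. Groups not overlapping with the exposed arrays higher made up 7.88% of all probes with MMI and 11.9% with PER.

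At 48 h no difference of btg1.S from controls was resolved, and the paired spots gave unlike differences. The controls read 2025, 2388 and 2826. With MMI the arrays read 1302, 3525 and 2726, and with PTU 3399, 1320 and 2135, both spanning the controls. With PER they read 1548, 2010 and 1965, all under the lowest control, and 6.52% of all probes had PER groups wholly below controls. That lowest control, replicate 1, joined spots of -208 and 4164 as deposited and was not above background. The log2 difference was -0.04 with MMI (adjusted p = 1), -0.16 with PTU (adjusted p = 0.971) and -0.37 with PER (SE 0.76; limma adjusted p = 0.969). Without the nearly identical arrays the PER differences of btg1.S were 0.18 at 24 h, again from 1 PER array with the spread of the other groups, and -0.42 at 48 h (limma adjusted p = 1 and 0.980). At 48 h limma called 0% of all probes with each compound, and the unadjusted p was under 0.05 for 22 probes with MMI, 33 with PTU and 26 with PER.

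**Figure D3:**
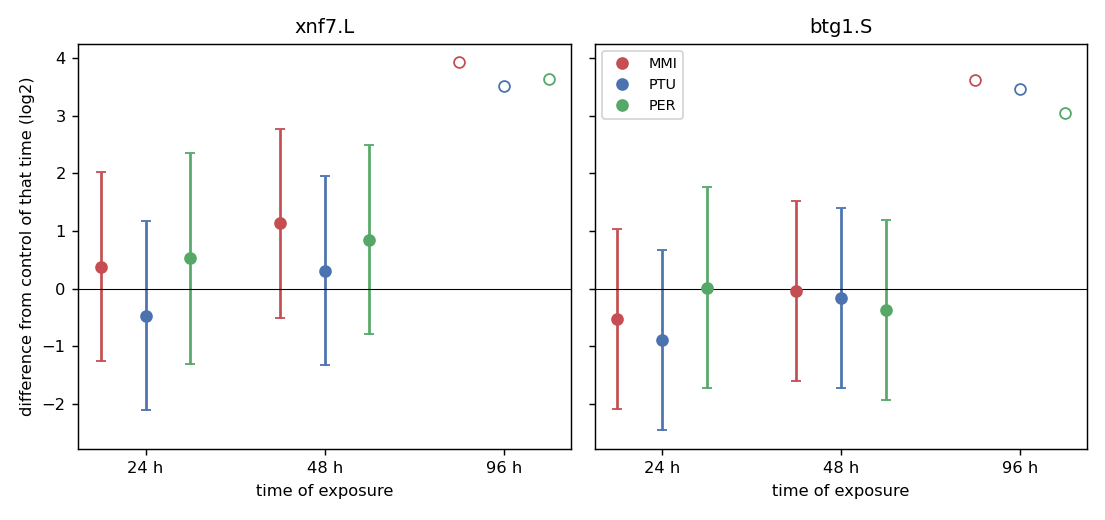
Difference from the control of the same time (log2 scale) for xnf7.L and btg1.S with each compound. Filled points at 24 h and 48 h carry the 95% interval from limma and all intervals include 0; open points at 96 h, between 3.05 and 3.93, have no interval because that time chose the genes. Signs near 0 at 24 h and 48 h turn with other scalings.

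Taking 24 h and 48 h as a mean gave narrower errors and no call. The difference of xnf7.L was 0.76 with MMI (SE 0.56; limma adjusted p = 0.655), -0.08 with PTU (adjusted p = 0.959) and 0.69 with PER (SE 0.60; adjusted p = 0.760). That of btg1.S was -0.28 with MMI (adjusted p = 0.888), -0.53 with PTU (adjusted p = 0.726) and -0.18 with PER (adjusted p = 0.946). Without the nearly identical arrays the PER values were 0.62 and -0.12. Over all probes 0% were called with MMI, with 39 at an unadjusted p under 0.05, 1.81% with PTU and 0.452% with PER. The differences of xnf7.L with MMI and PER kept a positive sign under every scaling tried, and the signs of xnf7.L with PTU and of btg1.S with each compound turned under quantile normalization and with all-probe median scaling. With the settings described, the lowest unadjusted p of either gene at these times was 0.167, that of xnf7.L with MMI at 48 h. Over the alternative settings no adjusted p was under 0.180.

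The difference from control was then tested for a change between 24 h and 48 h. For xnf7.L it was larger at 48 h by 0.75 with MMI (SE 1.13; limma adjusted p = 0.890), 0.78 with PTU (adjusted p = 0.946) and 0.32 with PER (adjusted p = 1.00). For btg1.S the change was 0.49 with MMI (adjusted p = 0.919), 0.73 with PTU (adjusted p = 0.946) and -0.39 with PER (adjusted p = 1.00). No probe on the array passed this test, 0% with each compound, and 32, 36 and 17 probes had an unadjusted p under 0.05 with MMI, PTU and PER. Without the nearly identical arrays the PER values were 0.16 for xnf7.L and -0.61 for btg1.S. With SEs above 1 on the log2 scale, a change of 2-fold between the times was not detectable in this fit. Its spread is shared with the control arrays of 96 h.

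Within a treatment, the level at 48 h against 24 h did not pass the test for either gene. In controls the log2 difference was -0.62 for xnf7.L (SE 0.80; limma adjusted p = 0.868) and 0.13 for btg1.S (adjusted p = 1), where 0.674% of all probes were called. With MMI it was 0.13 and 0.62, with PTU 0.15 and 0.86, and with PER -0.31 and -0.26 for xnf7.L and btg1.S. For these 3 compounds 0% of probes were called, and 21, 30 and 2 had an unadjusted p under 0.05 with MMI, PTU and PER. The PER arrays of xnf7.L at 48 h were all below those at 24 h, as for 3.6% of probes, but the closest arrays, 9048 and 9047, are the nearly identical pair, without which the PER differences were -0.46 for xnf7.L and -0.48 for btg1.S.

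Ordered by mean level, xnf7.L ran from 9103 ± 77.8 in PER 24 h (SD, n = 2) and 9075 ± 1537 in MMI 48 h (SD, n = 3) down to 4071 ± 356 in control 48 h and 1127 ± 2154 in control 96 h (SD, n = 3 each). Of the 11 pairs of neighbours in that order, 9 differed by less than the larger of their SDs. The exceptions were MMI 96 h above PER 96 h, by 1206 against an SD of 157, and control 48 h above control 96 h, by 2944 against an SD of 2154. Neither of these pairs overlapped on the scaled values, but both did as deposited. There MMI 96 h was below PER 96 h, at 4583 ± 1631 against 5935 ± 158 (SD, n = 3 each), with ranges of 3164 to 6364.5 and 5758.5 to 6063. The lowest control 48 h array read 3677.5 as deposited, under the highest of control 96 h at 3854.5.

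For btg1.S the order ran from 2518 ± 1126 in MMI 48 h and 2413 ± 401 in control 48 h down to 1338 ± 818 in PTU 24 h and 297 ± 767 in control 96 h (SD, n = 3 each). Of its 11 neighbouring pairs 10 differed by less than the larger SD. The exception was PTU 24 h above control 96 h, by 1041 against an SD of 818, and those arrays overlapped. Control 96 h was thus the lowest group for both genes. The other 11 groups formed a gradual series for btg1.S, and for xnf7.L apart from the scaled step between MMI 96 h and PER 96 h.

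Pooled over times, the treatments differed in spread. The xnf7.L values ran from -463 to 11450 over 9 control arrays with a median of 3985, from 5038 to 12552 over 9 MMI arrays with a median of 8065, from 3504 to 6652 over 9 PTU arrays with a median of 4918, and from 5216 to 9158 over 8 PER arrays with a median of 6683. The btg1.S medians were 2022 for controls, 1809 with MMI, 1721 with PTU and 1757 with PER. The btg1.S probe was above background on 3 of 9 control arrays, 7 of 9 with MMI, 8 of 9 with PTU and 8 of 8 with PER. That count follows the noise of the arrays as well as the level, since the median deposited background SD was 1022 on control arrays, 647 with MMI, 599 with PTU and 326 with PER.

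The probes whose group means ran most like those of xnf7.L over the 12 groups were pkm.S, for pyruvate kinase (r = 0.968), btg1.S (0.923), lmo3.S, a LIM-only cofactor expressed in neurons (0.910), mbd3.S, a methyl-CpG-binding domain protein (0.896) and gap43.S (0.880), out of 92 candidates. The choice of both genes for their distance from control 96 h sets much of their likeness to each other, so it is no result. For btg1.S they were pkm.S (0.926), xnf7.L (0.923), lmo3.S (0.916), cct3.S (0.900) and probe 809 (0.885). All of these probes share the arrays and the scaling, and r is a description over 12 group means. Without control 96 h the likeness to xnf7.L fell to 0.641 for pkm.S, 0.557 for mbd3.S, 0.346 for lmo3.S, 0.223 for btg1.S and 0.144 for gap43.S. For btg1.S it became 0.355 for lmo3.S, 0.279 for cct3.S, -0.02 for pkm.S and -0.32 for probe 809. Over the 8 groups of 24 h and 48 h, xnf7.L and btg1.S had an r of 0.167.

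The likeness therefore lay mostly in the low mean of 1 group. The level of pkm.S was 8778 ± 8263 in control 96 h (SD, n = 3), against group means of 16438 to 25123 elsewhere. For cct3.S it was 2658 ± 707 against 6731 to 11347, and for gap43.S 9475 ± 7340 against 17605 to 29210. For mbd3.S it was 4807 ± 4056 against 5568 to 11119, a smaller step. Each of these probes, with roles in glycolysis, protein folding, axon growth and chromatin, had control 96 h as its lowest group. So did 34.4% of the brighter probes with a value in every group. The probes were picked for likeness to profiles with that low group, so sharing it is no separate result.

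**Figure D4:**
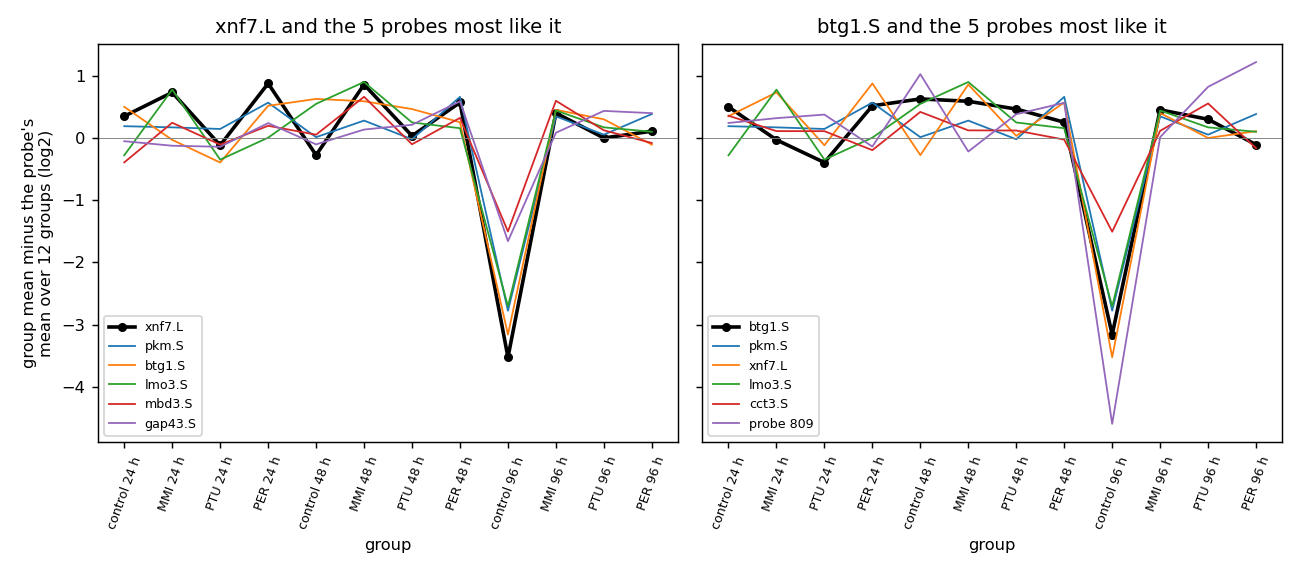
Mean log2 value of each group minus the probe's mean over the 12 groups, for xnf7.L (left, black) and btg1.S (right, black) with the 5 probes most like each. All lines dip at control 96 h; over the other 11 groups the correlations with the black line lie between 0.144 and 0.641 on the left and between -0.32 and 0.355 on the right.

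Genes of the pathways around the 2 genes were mostly dim on this array. Of the cell cycle and growth arrest list, 16 genes other than btg1.S were tested, and 1 of them was above background on at least 18 arrays. That was pcna.S, the replication clamp, above background on 33 arrays, with log2 differences of 0.88, -0.23 and 0.38 at 96 h for MMI, PTU and PER. The differences of mcm2.L, a subunit of the replicative helicase, were -0.04, 1.29 and 0.54, those of cdk1.S, the mitotic kinase, 1.03, -1.01 and -0.02, and those of ccne1.L, a cyclin of S-phase entry, -3.55, -4.25 and -1.36. None of these 4 passed the test at any time. In limma 0 of the 16 were called higher in any comparison and 1 was called lower, with MMI at 96 h. Over all probes 0.903% were called lower there and 3.84% higher. The gene was pkmyt1.S, a kinase that restrains CDK1, named after its values were seen (log2 difference -4.28; adjusted p = 0.0449), and it was above background on 6 of 35 arrays. The median difference of the list at 96 h was 0.22, -0.44 and -0.04, beside 0.14, -0.02 and -0.24 over all probes tested.

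The partners of the BTG/TOB family had 1 gene on the array, pabpc1.S, the poly(A)-binding protein that the family meets on mRNA tails. It was above background on 33 arrays, and its log2 differences at 96 h were 0.79, 0.83 and 1.34 with MMI, PTU and PER, none of which passed the test. The ubiquitin and tripartite-motif list also had 1 gene besides xnf7.L, psma2.L, a subunit of the proteasome core. Its differences at 96 h were 2.93 with MMI (limma adjusted p = 0.156), 2.14 with PTU (adjusted p = 0.444) and 2.29 with PER (adjusted p = 0.435). The microtubule list held tubb4b.L, a beta-tubulin above background on all 35 arrays, at 0.69, 1.41 and 0.94, and kif2c.S, a kinesin that takes microtubules apart, at -2.64, -2.85 and -1.91 and above background on 5 arrays. Of these 4 genes 0 were called at any time. That is near the share of all probes called either way, 4.74% with MMI at 96 h and less in the others.

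Of the thyroid hormone response list 8 genes were tested and 0 were called at any time with any compound. Over all probes 4.74%, 1.14% and 1.36% were called either way with MMI, PTU and PER at 96 h, so 0 of 8 is near that share. Only 2 of the 8 were above background on at least 18 arrays, mbp.S on 30 and nfib.L on 23. The probe of rxrb.L was above it on 14 and that of jun.L on 4. The brightest were mbp.S, with log2 differences at 96 h of 0.28, 1.94 and 1.41 for MMI, PTU and PER, nfib.L, a transcription factor, at 1.87, 0.96 and 0.81, rxrb.L, a partner of the thyroid hormone receptor, at -0.40, -0.12 and -0.88, and jun.L at -0.35, -1.25 and -1.22. At 96 h the median difference of the list was -0.04, 0.40 and -0.57. The direct receptor targets thibz.L and klf9.L, named for their role after their values were seen, were above background on 3 of 35 arrays each. At that signal a fall or a small rise in either could not be read, and neither was called.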

How the data were processed

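Per the labels' protocols, amplified brain RNA was turned into radioactive cDNA (32P) for an array of 1 channel. The authors' deposited table holds the intensity of 898 spots as linear whole numbers, many below 0, and 677 cells are empty. Not given in the sources used here are the scanner, the background subtraction, any scaling and why cells are empty. The number of arrays per group limits the precision.

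The 2 neighbouring spots of each of 449 probes were averaged. Each array was divided by its median over the 18 probes above 2 background SDs on all 35 arrays. Negative values became 0, and log2 was taken after adding 67.6, which is the 5th percentile of all values above 0. Array symbols were updated through gene IDs for 247 of 250 named probes. All probes were fitted with limma 3.58.1 in R 4.3.3 over 12 groups, with Benjamini-Hochberg adjustment over all probes that had at least 2 values per group and calls at an adjusted p under 0.05. The fit was checked on simulated data in which a probe had the same spread in every group. That check does not cover the wider spread of control 96 h. Plots used Python 3.11.15 and matplotlib 3.10.9.

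The 2 genes, the gene lists and the markers were chosen with earlier results of these data known. Named besides them are the 5 probes most like each gene and the 4 brightest named probes of each list. Probes called with 2 or 3 compounds at 96 h are named too. Others are said to be named after their values were seen. The neural markers dlx2.L, dlx5.L, neurod1.L and trh.S, outside the 4 brightest of their list, were also named with their values known. Alternatives changed the scaling, offset, dim-probe filter, spot, arrays fitted, nearly identical arrays, replicate block and each replicate. The replicate numbers come from the labels. Same-numbered arrays deviated together (r over 0.1 for every pair) only for PTU and control at 24 h (0.109 to 0.320), where the block changed no call.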

Additional observations from a re-analysis of the deposited data

Results flagged for a closer look

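For xnf7.L with PTU, all 3 arrays of 24 h lay below the control mean and all 3 of 48 h above it on the log2 scale, differences of -0.47 and 0.31. The change of 0.78 did not pass the interaction test (limma adjusted p = 0.946). The remaining cases involve 96 h, which chose the genes, so their differences were not tested. For xnf7.L with PTU the difference was 3.99 larger at 96 h (3.52) than at 24 h (-0.47), with all 3 arrays on opposite sides of the control mean. For btg1.S with PTU it was 4.35 larger at 96 h (3.46) than at 24 h (-0.89). For btg1.S with PER it was 3.43 larger at 96 h (3.05) than at 48 h (-0.37). Groups of 3 arrays were not examined for outlying samples.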

How the results depend on the processing

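Of 608 alternative values of the tests at 24 h and 48 h, 550 kept their sign, 58 turned it and 0 passed the threshold (lowest adjusted p 0.180). At 96 h 0 of 102 alternative values turned sign, which the choice of the genes favours. Of these values 14 moved by more than the spread between arrays. The cause was not tested. With the first spot alone, log2 differences became -0.30 for xnf7.L with MMI at 24 h, -0.10 with PTU at 48 h and -0.077 for PTU 48 h against 24 h. For btg1.S they became 1.62, 1.67 and 1.18 at 48 h and 0.23, 0.25 and 0.77 for the mean of both times (MMI, PTU, PER), 0.83 for the change of the PER effect between times, and -1.34 for controls at 48 h against 24 h. The first spot of btg1.S on control 48 h replicate 1 read -208 and the second 4164. With the second spot alone xnf7.L became 0.019 with PTU at 24 h, 0.47 with PTU for the mean, and -0.092 for MMI 48 h against 24 h, and btg1.S became -0.048 with PER at 24 h, -0.42 for the change of the PTU effect and -0.082 for PTU 48 h against 24 h. With all-probe median scaling xnf7.L with PTU became 0.60 at 24 h and 0.81 for the mean, its change of effect -0.27 with MMI and -0.29 with PER, and MMI 48 h against 24 h -0.28. For btg1.S that scaling gave 0.85 (MMI) and 0.14 (PTU) at 24 h, 0.36 and 0.53 at 48 h, 0.60, 0.34 and 0.35 for the mean, and -0.50 for the change of the MMI effect. With quantile normalization xnf7.L with PTU became 0.24 at 24 h and 0.62 for the mean, its change of effect -0.20 with MMI and -0.037 with PER, and MMI 48 h against 24 h -0.46. For btg1.S it gave 0.54 with MMI at 24 h, 0.21, 0.71 and 0.14 at 48 h, 0.38, 0.35 and 0.63 for the mean, and -0.33 for the change of the MMI effect. As deposited, btg1.S became 0.33 with MMI and 0.27 with PTU at 48 h, and xnf7.L 0.081 with PTU for the mean.

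At 96 h the second spot alone gave 2.24, 1.84 and 2.31 for xnf7.L with MMI, PTU and PER, and the first spot alone 2.58 and 2.03 for btg1.S with MMI and PER. Leaving out each replicate gave 2.58 to 5.46, 2.18 to 5.06 and 2.29 to 5.17 for xnf7.L and 2.91 to 5.01, 2.76 to 4.86 and 2.35 to 4.45 for btg1.S (MMI, PTU, PER). At the earlier times it turned signs for btg1.S with PER at 24 h (-0.15 to 0.18), MMI at 48 h (-0.33 to 0.37) and PTU at 48 h (-0.49 to 0.17), and for xnf7.L with PTU for the mean (-0.23 to 0.13), the change of the PER effect (-0.11 to 0.62), and 48 h against 24 h with MMI (-0.22 to 0.43) and PTU (-0.032 to 0.28).

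With the replicate block, pairing arrays by number, no call of either gene changed. For PER at 24 h, where 1 number is missing, xnf7.L was 0.56 and btg1.S 0.24. Of 26 same-numbered pairs 6 had an r over 0.1 (range -0.379 to 0.320), and only for PTU at 24 h did every pair exceed it. With so few arrays per group this cannot show whether the numbers pair the arrays elsewhere.

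Calls over all probes moved widely across the settings other than leaving out a replicate. At 24 h they were 3 (0 to 3), 7 (0 to 10) and 0 (0 to 3) with MMI, PTU and PER, and at 48 h 0 (0 to 1), 0 (0 to 6) and 0 (0 to 1). At 96 h they were 21 (0 to 22), 5 (0 to 11) and 6 (1 to 14), with 0, 0 and 1 where only the arrays compared were fitted, and for the mean of 24 h and 48 h 0 (0 to 4), 8 (0 to 19) and 2 (0 to 13). Leaving out a replicate at 96 h gave 9 to 31, 2 to 17 and 1 to 13. The signal over background limits btg1.S in controls most, with 3 of 9 arrays above it.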
